A study of Homo sapiens with 4 samples.

Results

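The carbonic anhydrases described here are 6 genes of the family, CA2, CA8, CA9, CA11, CA12 and CA13, followed on 4 Affymetrix expression arrays of human lung tumour cell lines. Members were all probe sets whose platform annotation gives 1 gene symbol that is among these names, which found 14 probe sets of 5 genes among the 41091 single-gene probe sets of 19775 genes. CA9 had no single-gene probe set in the annotation used here and was not analysed here. The 6 names were chosen from the family with measured values of these arrays in view, levels and differences alike, so the members are described here without a test. The groups were NCI-H358 with a CHST11 vector, NCI-H358 with an empty vector, A549 with a CHST11 vector and A549 with an empty vector, with 1 array in each. NCI-H358 is a line from a human bronchioloalveolar carcinoma and A549 one from a human lung adenocarcinoma, and all 4 cultures were stably transduced and selected with antibiotics. CHST11 is a Golgi sulfotransferase acting on chondroitin chains. Nothing in the labels says whether a transduced culture was 1 clone or a mixed population.

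Carbonic anhydrases interconvert carbon dioxide and water with bicarbonate and a proton, on a zinc ion held by histidines. CA2 and CA13 are cytosolic enzymes, whereas CA12 and CA9 span the plasma membrane with their active site outside the cell and take part in the pH regulation of tumours. CA8 and CA11 belong to the carbonic anhydrase-related proteins, which lack the full set of zinc ligands and do not catalyse the reaction. In the lung, the membrane-anchored CA4 lies on capillary endothelium.

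The arrays had median signals of 15.9 to 16.31. A gene was called measured in a line when its brightest probe set reached a signal of 27, which 60 in 100 of the deposited values did not exceed, in either culture of that line. Signals under 16.14, the median of the deposited values, were raised to that floor before log2 was taken, and signals below it have no order. With 1 array in each group there was no replicate check, and the SD of the log2 vector difference between probe sets of the same gene, 0.173 in NCI-H358 and 0.158 in A549, served as a gauge of scatter on the arrays that does not cover the spread between cultures. The CHST11 probe set 219634_at had 1058 and 343.5 in the NCI-H358 and A549 CHST11 cultures, against 220.1 and 129 in their empty vector cultures. The other CHST11 probe sets, 226368_at and 226372_at, had vector differences of log2 -0.05 and 0.14 in NCI-H358 and of 0.11 and -0.16 in A549. The 3′ over 5′ signal ratio of the GAPDH control, a sign of RNA quality, was 2.19 on the CHST11 array and 2.14 on the empty vector array of NCI-H358, and 2.14 on the CHST11 array and 2.64 on the empty vector array of A549. The same ratio of the ACTB control was 2.32, 2.06, 2.14 and 2.4 in that order. Both controls had their highest ratio on the A549 empty vector array, which enters every A549 vector difference below, and its part in them was not tested.

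All 5 epithelial markers were measured in both lines, at unlike levels. EPCAM had 5599 and 4684 in NCI-H358, CHST11 before empty vector, against 123 and 210 in A549, and KRT19 and CDH1 were also brighter in NCI-H358. KRT8 had 1926 and 2148 in NCI-H358, against 5360 and 5235 in A549, and KRT18 was also brighter in A549. Of the lung epithelial list, 3 of 4 genes with a probe set were measured in NCI-H358 and 2 in A549. Its lineage factor NKX2-1 had signals of 264 and 247 in the CHST11 and empty vector cultures of NCI-H358 and lay below the floor in A549. The surfactant protein gene SFTPB had 30.5 and 28.4 in NCI-H358 and 27.3 and 29.1 in A549, CHST11 before empty vector, and SFTPC had 46.7 and 51.1 in NCI-H358 and 45.9 and 51.1 in A549, so both were dim and alike between the lines, while NAPSA stayed under the filter. The summed signal of the erythroid list, a lineage rich in CA1 and CA2, was 98.5 and 109.5 in NCI-H358 and 90.6 and 105 in A549, CHST11 before empty vector. Of its 3 genes with a probe set, HBB passed the filter in both lines while SLC4A1 and ALAS2 did not. Of 4 endothelial markers, PECAM1 was measured in both lines at signals of 34.6 to 40, and CDH5, VWF and KDR lay below the floor on all 4 arrays. Of 4 leukocyte markers with a probe set, CORO1A was measured in NCI-H358 (83.6 and 83.5) and CD14 (38.4 and 24.2) and CD3E (26 and 27.1) in A549, while PTPRC lay below the floor on all arrays. Of 5 fibroblast markers, COL1A1 had 153 to 170 on all 4 arrays and THY1 was measured in A549 (40.9 and 33.5), while COL1A2, COL3A1 and PDGFRB lay below the floor throughout. The summed signals of these 3 lists ran from 61.8 to 70.5, from 68.8 to 124 and from 211 to 227 over the arrays, in that order, and their part in the members' signals was not tested.

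Of the 5 genes, 5 were measured in A549 and 1, CA13, in NCI-H358, beside 11448 and 11395 of all 19775 genes. In these arrays A549 thus carried signal for the membrane enzyme CA12, the cytosolic enzymes CA2 and CA13 and the related proteins CA8 and CA11, while in NCI-H358 CA2, CA8, CA11 and CA12 stayed under the filter. By probe set, 10 of 14 were measured in A549 and 1 in NCI-H358. Vector differences could therefore be given for all 5 genes in A549 and for CA13 alone in NCI-H358. Nothing more is read from these counts, since the members were chosen with levels in view.

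**Figure D1:**
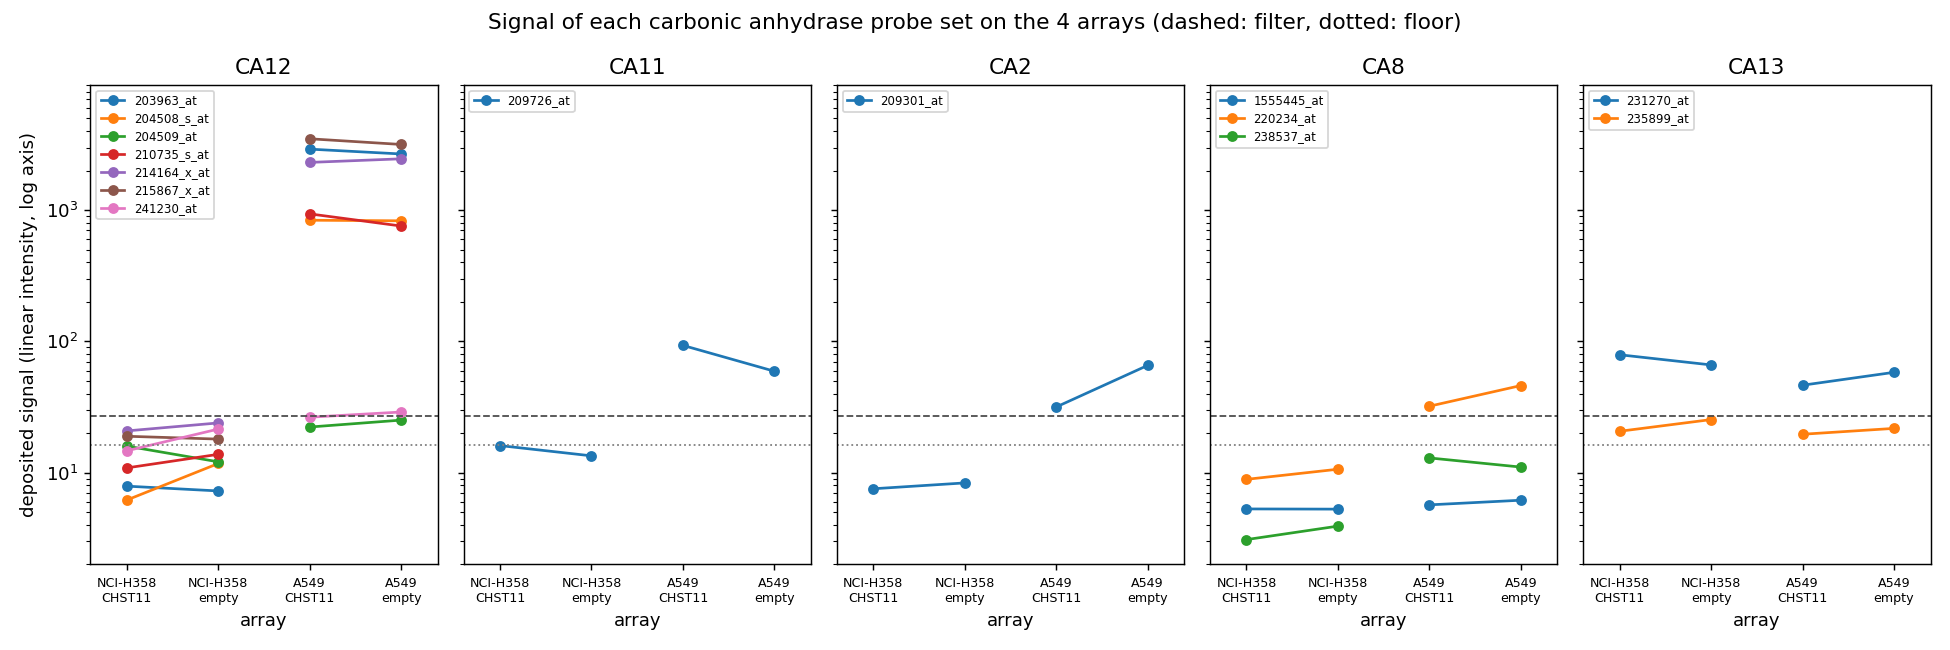
Deposited signal (log axis) of every probe set of CA12, CA11, CA2, CA8 and CA13 on the 4 arrays, with the arrays of a line joined. The dashed line is the filter of 27 and the dotted line the floor of 16.14. Of the 7 CA12 probe sets, 5 lie between 757 and 3499 in A549 and all 7 lie under the filter in NCI-H358, while CA13 probe set 231270_at is above the filter on all 4 arrays.

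CA12, the transmembrane enzyme, had the largest bound on the line difference among the members. Its brightest probe set, 215867_x_at, had signals of 18.9 in NCI-H358 with CHST11 and 18 in NCI-H358 with the empty vector, against 3499 in A549 with CHST11 and 3168 in A549 with the empty vector. With NCI-H358 raised to the filter, A549 was at least 129.6-fold higher than NCI-H358 on the CHST11 arrays and at least 117-fold higher on the empty vector arrays. The mean difference, NCI-H358 minus A549, was log2 -6.95 as a bound. Probe set 203963_at had 7.89 and 7.25 in NCI-H358, CHST11 and empty vector, and 2918 and 2680.4 in A549. Probe set 214164_x_at had 20.8 and 23.9 in NCI-H358 and 2312 and 2462 in A549, in the same order. The suffix _x_at marks probe sets that may also bind other transcripts, yet 203963_at, which carries no such mark, showed at least 108-fold and 99.3-fold higher signals in A549 than in NCI-H358 on the CHST11 and empty vector arrays.

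The remaining CA12 probe sets fell into a middle and a dim pair. Probe set 204508_s_at had 6.19 and 11.7 in NCI-H358, CHST11 and empty vector, against 838 and 829.6 in A549, and 210735_s_at had 10.9 and 13.8, against 937 and 757. These 4 A549 signals were at least 28-fold above the filter-bounded NCI-H358 signals. By contrast, 204509_at had 15.9 and 12.1 in NCI-H358 and 22.3 and 25.1 in A549, so it passed the filter nowhere. Probe set 241230_at reached 29 on the A549 empty vector array and 26.4 on the A549 CHST11 array, against 14.7 and 21.5 in NCI-H358. Of the 7 CA12 probe sets, 5 thus showed the line difference and 2 were too dim to judge it.

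The CHST11 vector left no settled difference at CA12. In A549, the vector differences of its 6 measured probe sets ran from log2 -0.13 at 241230_at to 0.31 at 210735_s_at, with 215867_x_at at 0.14, 203963_at at 0.12, 204508_s_at at 0.02 and 214164_x_at at -0.09. The brightest probe set lay within the gauge of 0.158. Probe sets of CA12 lay on both sides of 0, and in NCI-H358 the gene had no measured probe set.

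The CA12 start region is shown because CA12 carried the line difference and has a window in the RefSeq promoter table. Among the members, CA2, CA8, CA11 and CA13 were not found in that table. The 250 bases before the annotated start, RefSeq GRCh38.p14, chr15:63381847-63382096, minus strand, read 5′ to 3′ as follows, with the one motif match in capitals.
CA12: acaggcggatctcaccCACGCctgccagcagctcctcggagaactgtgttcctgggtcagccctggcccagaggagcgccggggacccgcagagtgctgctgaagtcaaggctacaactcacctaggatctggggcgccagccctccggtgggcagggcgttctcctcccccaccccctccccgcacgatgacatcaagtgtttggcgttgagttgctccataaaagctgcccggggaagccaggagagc
The search covered both strands for the hypoxia response core in its forms ACGTG and GCGTG, the oestrogen receptor motif AGGTCA, the TATA box (letters TATAAA), the GC box (letters GGGCGG) and the CCAAT box. The capitals mark a GCGTG on the strand opposite to the gene, whose first base in the window lies 234 bases before the start. One or other form of the core stood in 43.2% of 35116 such windows and GCGTG in 32.2%, so the match is common. The letters of the other form of the core were not in this window and stood in 18.5% of all windows. Those of the oestrogen receptor motif, the TATA box, the GC box and the CCAAT box were not in it either, and stood in 12.1%, 10.7%, 42.6% and 32% of all windows in that order. G and C made up 64.8% of the CA12 window, against a median of 58% over all windows.

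CA2, the fast cytosolic isoform, had the largest vector difference among the members. Its only probe set, 209301_at, had 7.53 and 8.35 in NCI-H358 with CHST11 and with the empty vector, both below the floor. In A549 the same probe set had 31.6 with CHST11 and 65.6 with the empty vector. The A549 vector difference was log2 -1.05, a 2.07-fold lower signal with CHST11, and it was the 8th lowest of 11448 genes. In order of level, A549 empty vector was highest and A549 CHST11 next, and the 2 NCI-H358 arrays could not be ranked. Against NCI-H358 raised to the filter, A549 was at least 1.17-fold higher on the CHST11 arrays and at least 2.43-fold higher on the empty vector arrays. The lower A549 signal lay close to the filter, so the size of the line difference depended on the vector pair, and a filter raised to the 75th percentile left the gene unmeasured.

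CA13, the other cytosolic enzyme, was the member with measured signal in both lines. Its probe set 231270_at had 79.1 with CHST11 and 66.2 with the empty vector in NCI-H358, and 46.3 with CHST11 and 58.1 with the empty vector in A549. Both NCI-H358 arrays were above both A549 arrays. NCI-H358 was 1.71-fold higher than A549 on the CHST11 arrays and 1.14-fold higher on the empty vector arrays. The vector differences were log2 0.26 in NCI-H358 and -0.33 in A549, opposite in sign and each beyond the gauge of its line, as in 5.84% of the 10572 genes measured in both lines. Both lay inside the central 95% of measured genes in their line. The NCI-H358 difference was the 1120th highest of 11395 genes and the A549 difference the 429th lowest of 11448. The second probe set, 235899_at, stayed under the filter with 20.7 and 25.4 in NCI-H358 and 19.6 and 21.7 in A549, CHST11 before empty vector. Its vector differences of log2 -0.30 and -0.15 had the same sign in both lines, so the direction in NCI-H358 differed between the probe sets of the gene.

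CA11, a secreted related protein without catalysis, was higher with CHST11 in A549. Its probe set 209726_at had 16.1 with CHST11 and 13.4 with the empty vector in NCI-H358, both below the floor. In A549 it had 93.2 with CHST11 and 59.3 with the empty vector. The A549 vector difference was log2 0.65, a 1.57-fold higher signal with CHST11, and it was the 33rd highest of 11448 genes. Against NCI-H358 raised to the filter, A549 was at least 3.45-fold higher on the CHST11 arrays and at least 2.19-fold higher on the empty vector arrays. That size rested on the filter, since under a filter raised to the 75th percentile the mean bound of CA11 was log2 -0.052.

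CA8, a related protein known to bind the inositol trisphosphate receptor ITPR1, had 1 measured probe set of 3. Probe set 220234_at had 8.89 and 10.6 in NCI-H358 with CHST11 and with the empty vector, against 32.1 in A549 with CHST11 and 46.1 in A549 with the empty vector. The A549 vector difference was log2 -0.52, a 1.44-fold lower signal with CHST11, and it was the 110th lowest of 11448 genes. Against NCI-H358 raised to the filter, A549 was at least 1.19-fold higher on the CHST11 arrays and at least 1.71-fold higher on the empty vector arrays. Its other probe sets were below the floor on every array: 238537_at had 3.09 and 3.91 in NCI-H358 and 12.9 and 11 in A549, and 1555445_at had 5.27 to 6.16 over the 4 arrays.

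**Figure D2:**
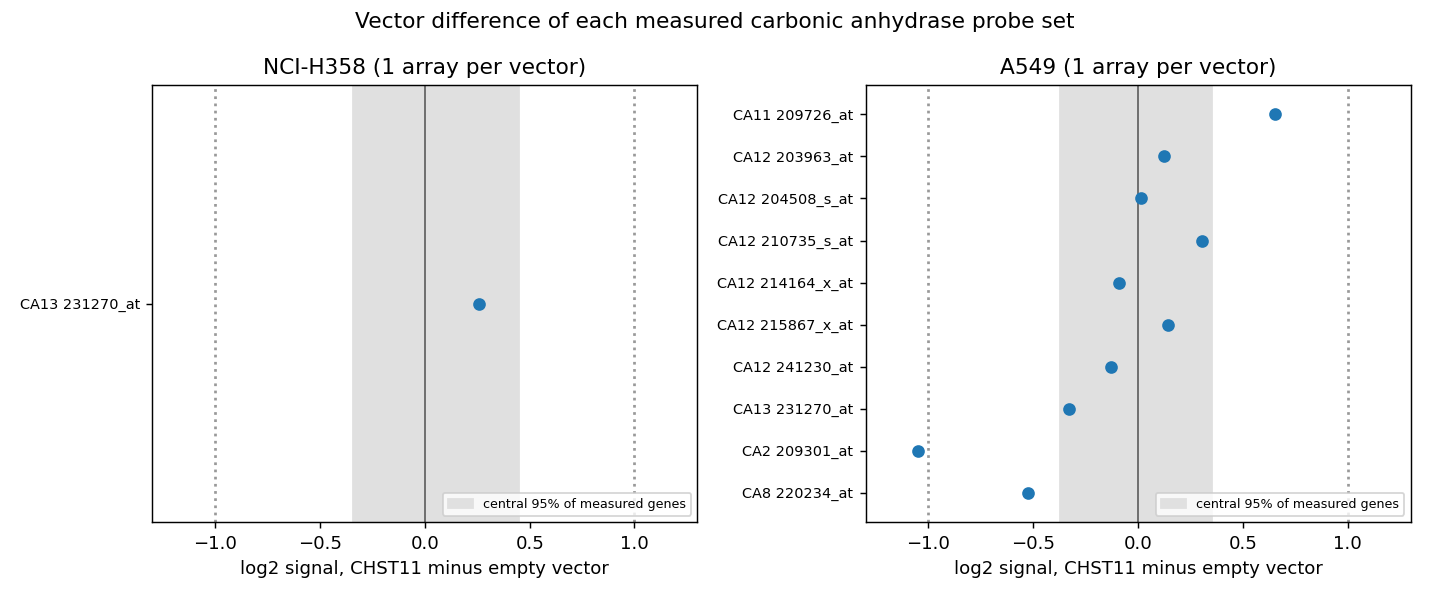
Log2 signal, CHST11 minus empty vector, of each measured probe set of the members in NCI-H358 (left) and A549 (right), 1 array per vector. The grey band is the central 95% of measured genes, from -0.34 to 0.45 in NCI-H358 and from -0.37 to 0.35 in A549, and dotted lines mark 2-fold. In A549, CA2 and CA8 lie left of the band, CA11 lies right of it, and all 6 CA12 probe sets and CA13 lie inside it.

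Within A549 the vector differences of the members had both signs. Of the 5 measured genes, 1 was at least 2-fold apart between the vectors, CA2, beside 0.114% of all measured genes. At 1.5-fold there were 2, CA2 lower and CA11 higher, beside 1.21% of all measured genes. CA13, the 1 gene measured in NCI-H358, was less than 1.5-fold apart there, beside 1.17% of genes that reached that size and 0.0527% at 2-fold. Between the lines, CA12 and CA11 of the 5 were at least 2-fold lower in NCI-H358 than in A549 in both vector pairs, beside 9.27% of genes. None of the 5 was at least 2-fold higher in NCI-H358 in both pairs, beside 9.18% of genes. Since the members were chosen with these values in view, nothing is read from the counts.

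The other carbonic anhydrase genes with a single-gene probe set were mostly under the filter. These were CA1, CA3, CA4, CA5A, CA5B, CA6, CA7, CA10 and CA14, with 14 probe sets, and 1 of the 9 genes passed the filter. That gene was CA5B, a mitochondrial enzyme, whose probe set 207129_at had 22.1 and 22.2 in NCI-H358 with CHST11 and with the empty vector, against 29.7 and 24.9 in A549. CA14, a membrane enzyme related to CA12, had 19.3 and 19.2 in NCI-H358 and 20 and 22 in A549, CHST11 before empty vector, between floor and filter. CA4, of lung capillaries, had 8.37 and 9.82 in NCI-H358 and 7.36 and 7.72 in A549 at probe set 206209_s_at, below the floor. In RefSeq, CA13, CA1, CA3 and CA2 follow each other as protein-coding genes on chromosome 8. Of this run, CA13 was measured in both lines and CA2 in A549, while CA1, red cell carbonic anhydrase, and CA3, the muscle isoform, lay below the floor on all arrays.

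Genes of bicarbonate and acid transport, hypoxia and oestrogen response were taken as 4 lists of 95 distinct genes, 64 of them measured. They hold partners and regulators of carbonic anhydrases together with other targets of the same regulators, and are called partner genes below. For these genes, which are no members, the line difference was tested with limma over 12271 genes, with a term for the vector and 1 residual degree of freedom. Signals below the floor entered at the floor, not at the filter, and the p-values measure only the spread between these 4 arrays, since nothing in the labels gives separate cultures of a group. At a Benjamini-Hochberg adjusted p of 0.05 limma called 43 of the 64, 20 higher and 23 lower in NCI-H358. That was 67.2% of them, beside 64.5% of all genes (33.9% higher and 30.6% lower), so the lists were called about as often as genes in general. For genes measured in 1 line alone the fitted difference and its spread rest partly on values set by the floor. Such genes are given singly here by their signals and as a bound against the filter of 27, without the limma estimate. The counts and medians of the lists below still include them, so counts over genes measured in both lines are given beside. Among the 55 partner genes measured in both lines limma called 35, 17 higher and 18 lower in NCI-H358, which was 63.6% of them beside 60.9% of all such genes. For the shared vector difference limma called 0 of 12271 genes, with 374 (3.05%) at an unadjusted p under 0.05 and 330 with an intensity trend. Of the 64 partner genes 3 were among the 374.

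Of 16 bicarbonate transporters listed, 5 were measured. Limma called 4 of them lower in NCI-H358 and 0 higher, beside 30.6% and 33.9% of all genes. Among the 4 measured in both lines it called 3 lower and 0 higher, beside 2996 and 3441 of all 10572. The median log2 difference of the 5 was -0.62, beside 0.03 over all genes, and with so few genes no direction is read for the list. SLC4A2, the widespread anion exchanger, had 258 and 259 in NCI-H358 with CHST11 and with the empty vector, against 457 and 454 in A549 (limma log2 -0.82, SE 0.087, adjusted p 0.00151). SLC4A4, an electrogenic sodium bicarbonate cotransporter, had 48.6 and 42.5 in NCI-H358 and 68.5 and 71 in A549 (limma adjusted p 0.00641). SLC4A11, a membrane transporter of the same family, was below the floor in NCI-H358 and had 44 and 55.7 in A549, at least 1.83-fold higher in A549. SLC4A7, an electroneutral sodium bicarbonate cotransporter, had a limma difference of log2 -0.44 with an adjusted p of 0.0672, and its 3 measured probe sets ran from log2 -0.77 to -0.44.

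In the list of acid, lactate and water transport, 2 of 15 measured genes were called higher and 7 lower in NCI-H358. All genes had shares of 33.9% and 30.6%. The median of the list was log2 -0.08, and no direction is read for it. Among the 13 measured in both lines, 2 were called higher and 5 lower, beside 3441 and 2996 of all 10572. SLC16A4, a monocarboxylate transporter family member, had 3.57 and 5.09 in NCI-H358 with CHST11 and with the empty vector, against 751 and 724.5 in A549, at least 27.3-fold higher in A549. AQP3, a water and glycerol channel, had 13.8 and 19.4 in NCI-H358 at its brightest probe set, against 217 and 270.4 in A549. That probe set was at least 8.97-fold higher in A549, a bound that does not hold for the whole gene. Of its 3 measured probe sets, 2 passed the filter in NCI-H358, and with signals at the floor the 3 ran from log2 -3.77 to -0.39. SLC16A7, a monocarboxylate transporter, had 208 and 137 in NCI-H358, against 56.6 and 62.1 in A549 (limma log2 1.51, SE 0.193, adjusted p 0.00265), and its 4 measured probe sets ran from log2 0.44 to 1.72. EMB, embigin, a chaperone of monocarboxylate transporters, had 394 and 396 in NCI-H358, against 76.9 and 79.4 in A549 (limma log2 2.34, adjusted p 9.48e-05).

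Hypoxia factors and their targets split in both directions, as did genes in general. Of 35 measured genes, 14 were called higher and 9 lower in NCI-H358, beside 33.9% and 30.6% of all genes. Their median was log2 0.19. Among the 32 measured in both lines, 12 were called higher and 8 lower, beside 3441 and 2996 of all 10572. HIF1A, the oxygen-regulated factor known to induce CA9, had 5817 and 5107 in NCI-H358 with CHST11 and with the empty vector, against 6067 and 6029 in A549 (limma log2 -0.15, SE 0.097, adjusted p 0.232). EPAS1, its paralogue, had 969 and 816 in NCI-H358, against 1593 and 1815 in A549 (limma log2 -0.94, adjusted p 0.00391). HK2, a hexokinase, had 444 and 427 in NCI-H358, against 8.27 and 7.97 in A549, at least 16.1-fold higher in NCI-H358, though its 2 measured probe sets with signals at the floor gave log2 1.27 and 4.75. VEGFA, an angiogenic factor, had 2149 and 1881 in NCI-H358, against 399 and 321 in A549 (limma log2 2.49, adjusted p 9.04e-05). The 4 measured VEGFA probe sets ran from log2 1.27 to 2.49, of which the tested one is the top. EGLN3, a prolyl hydroxylase, had limma log2 1.49 (adjusted p 0.000588, its 2 probe sets from 1.08 to 1.49) and SLC2A1, a glucose transporter, 0.84 (adjusted p 0.0037, its 2 probe sets from 0.60 to 0.84). Targets lowest in NCI-H358, named by that rank, were DDIT4, an inhibitor of mTOR signalling, at log2 -2.25 (limma adjusted p 0.00011) and PFKFB3, a glycolytic regulator, at -2.02 (limma adjusted p 0.000163).

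CA12 is known as an oestrogen receptor target in breast cells, which gave the fourth list. Of its 9 measured genes, 4 were called higher and 3 lower in NCI-H358, beside 33.9% and 30.6% of all genes. The median was log2 0.07, or 0.02 with the genes measured in 1 line at their bound. Among the 6 measured in both lines, 3 were called higher and 2 lower, beside 3441 and 2996 of all 10572. ESR1, the receptor, was near the filter with 24.8 and 29.9 in NCI-H358 with CHST11 and with the empty vector, and 29.3 and 22.9 in A549 (limma log2 0.07, adjusted p 0.724), from 1 of 9 probe sets. GATA3, a luminal transcription factor, had 7.88 and 9.62 in NCI-H358, against 89.6 and 97.2 in A549, at least 3.46-fold higher in A549. FOXA1, a forkhead pioneer factor, had 253 and 234 in NCI-H358, against 87.6 and 84.8 in A549 (limma log2 1.496, adjusted p 0.000286). MYB had 57 and 52.7 in NCI-H358, against 18.6 and 23.8 in A549, at least 2.03-fold higher in NCI-H358, whereas KRT18 was lower in NCI-H358 (limma log2 -1.12, adjusted p 0.000723).

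**Figure D3:**
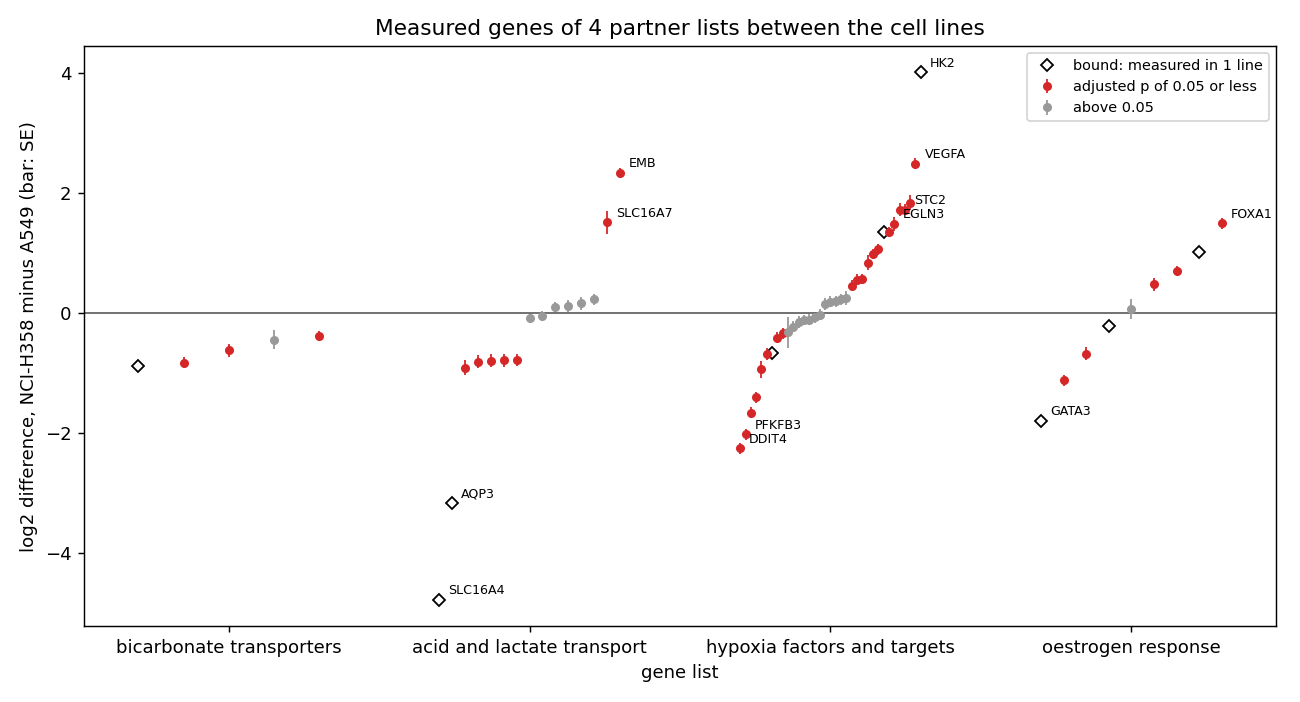
Log2 difference, NCI-H358 minus A549, of each measured gene of the 4 partner lists, ordered within each list, from limma with the SE as a bar (red: adjusted p of 0.05 or less, grey: above it) or, as open diamonds, the bound of genes measured in 1 line. The bicarbonate transporters all lie below 0, and the other lists hold genes on both sides, with the bounds of SLC16A4 at -4.77 and HK2 at 4.01.

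By vector, 0 genes of the 4 lists were at least 2-fold apart in either line, beside 0.0527% of all measured genes in NCI-H358 and 0.114% in A549, so nothing is read from that count about the lists. At 1.5-fold, beside 1.17% and 1.21% of all measured genes in that order, SLC16A7 was higher with CHST11 in NCI-H358 (log2 0.60, its 4 measured probe sets from 0.04 to 0.60) and TFF1, a secreted trefoil factor, was lower in A549 (log2 -0.84). Other probe sets than the brightest gave other values in NCI-H358, where the 4 measured VEGFA probe sets ran from log2 -0.69 to 0.20 and the 2 of AQP3 from -0.51 to 0.08. The median vector differences of the 4 lists, in the order bicarbonate, acid and lactate, hypoxia and oestrogen, were log2 0.09, -0.025, 0.14 and 0.11 in NCI-H358, and -0.05, -0.03, 0.03 and 0.04 in A549. HIF1A had vector differences of 0.19 in NCI-H358 and 0.01 in A549.

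The genes whose profile over the 4 arrays was most like that of each member were found by the root mean square difference of floored log2 values centred per gene. For CA12 they were AKR1C3, an aldo-keto reductase (0.069), CXCL5, a chemokine (0.082), and BEX3 (0.147). AKR1C3 had 65.1 and 57.4 in NCI-H358 with CHST11 and with the empty vector, against 11129 and 11249 in A549. For CA2 they were GDA, guanine deaminase (0.128), RNF217 (0.135) and SOX17, an endoderm transcription factor (0.145). GDA had 25.4 in A549 with CHST11 and 59.9 in A549 with the empty vector, and both NCI-H358 arrays were below the floor. For CA8 the nearest were ZZEF1 (0.033), KCNJ16, a potassium channel (0.042), and LINC02086 (0.049). For CA11 they were NUDT11 (0.053), PIAS2 (0.068) and CNNM1 (0.079), and for CA13 ZFYVE26 (0.012), KNL1, a kinetochore scaffold (0.022), and LAMC1, a laminin chain (0.027). The likeness rests on 4 arrays of 2 lines, and for CA2, CA8 and CA11 both NCI-H358 values entered at the floor. ZZEF1, matched to CA8, was above the floor there (63.2 and 60, CHST11 before empty vector).

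The chromosomal neighbours of CA12 were looked at after its values had been seen. Among the 4 protein-coding genes on each side on chromosome 15, 6 were measured. The nearest on one side, APH1B, a gamma-secretase subunit, had 41.9 and 38.1 in NCI-H358 with CHST11 and with the empty vector, against 194.5 and 173 in A549 (limma log2 -2.20, SE 0.087, adjusted p 0.000106). The next 3 on that side were lower in NCI-H358 as well: RAB8B, a small GTPase of vesicle traffic, with limma log2 -0.83 (adjusted p 0.00267), RPS27L, a ribosomal protein paralogue, with -1.64 (adjusted p 0.000326) and LACTB, a mitochondrial protein, with -1.35 (adjusted p 0.000578). On the other side USP3, a deubiquitinase, differed by limma log2 -0.39 (adjusted p 0.0271). HERC1, a ubiquitin ligase, had 215 and 155 in NCI-H358, against 109 and 196 in A549, and did not pass (limma adjusted p 0.421). FBXL22 and DAPK2 were under the filter in both lines. Neighbours of CA11 and CA2, both brighter in A549, were looked at too. Near CA11, DBP was higher in NCI-H358 (limma log2 0.586, adjusted p 0.00744) and RPL18 did not pass (limma log2 -0.243, adjusted p 0.0685). FUT2 passed the filter in NCI-H358 alone and SPACA4 in A549 alone. Near CA2, RBIS was higher in NCI-H358 (limma log2 0.437, adjusted p 0.0127). Limma called 30.6% of all genes lower in NCI-H358, and gene copy number was not measured here.

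**Figure D4:**
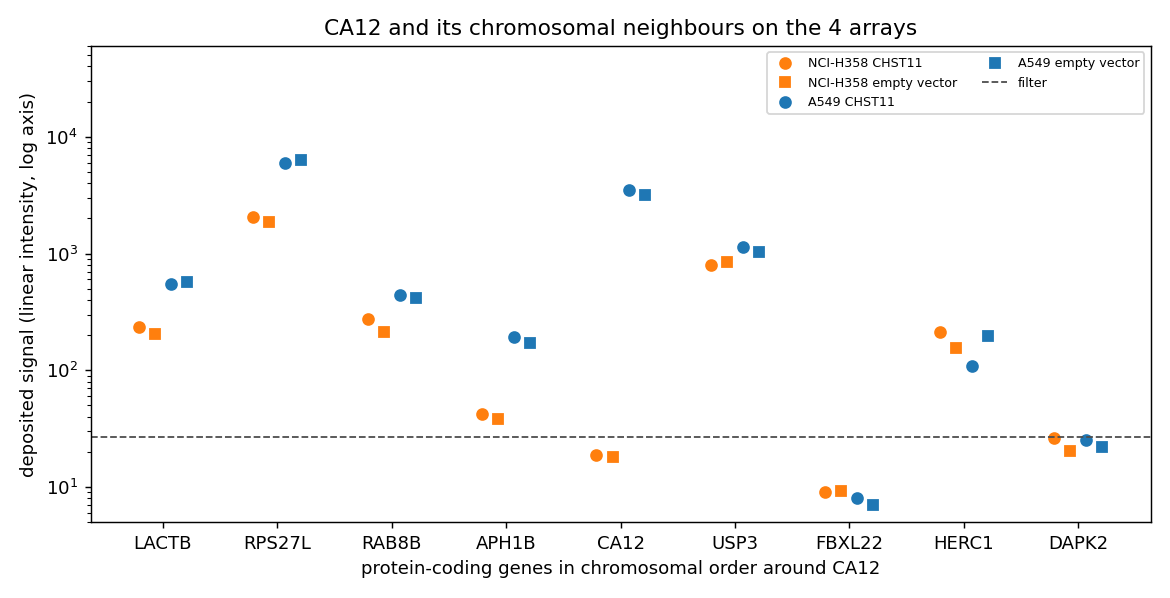
Deposited signal (log axis) of CA12 and the 4 protein-coding genes on each side of it in chromosomal order, on NCI-H358 arrays (orange) and A549 arrays (blue), with circles for CHST11 and squares for the empty vector. APH1B, RAB8B, RPS27L and LACTB lie lower in NCI-H358 than in A549, by less than CA12, and HERC1 overlaps between the lines.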

How the data were processed

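Total RNA of 4 stably transduced cultures was labelled with biotin and hybridised to 1-colour Affymetrix arrays with 54675 probe sets. The deposited values are intensity values on a linear scale, from 2.462 to 15499, made by the authors with MAS5, per the submitters' processing notes. No source used here names its version or scaling target, detection calls were not used here, and any further step on the values is unknown. Array number limits the precision.

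Of the probe sets, 41091 carried 1 symbol in the platform annotation, 1801 carried several and 11721 carried no symbol. The 62 controls served only for the 3′ over 5′ ratios. By Entrez ID 99.9% matched RefSeq. A gene was represented by its brightest single-gene probe set, while members are given probe set by probe set. Signals were floored at 16.14 before log2. Between lines, signals of the members, and of partner genes measured in 1 line, were raised to the filter of 27 where under it, so that folds are bounds, whereas limma used the floor. Vector differences were counted by size, with no p-value. Line and shared vector differences of all 12271 measured genes were fitted in R 4.3.3 with limma 3.58.1 (terms for line and vector, Benjamini-Hochberg). Its error term, with 1 residual degree of freedom, is the difference between the lines in their vector response. Tables and plots used Python 3.11.15, NumPy 2.4.6, pandas 2.3.3 and matplotlib 3.10.9.

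The text names all members, the other family genes, the 2 highest and 2 lowest called genes of each partner list by line difference, the highest and lowest by vector, 12 genes fixed by name, and 3 nearest profiles per member. Not all of these are printed. Members and lists were chosen with earlier results of these data known. Alternatives were quantile, cyclic loess and median normalization, other floors and filters, the median of probe sets, an intensity trend and 1 vector pair alone.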

Additional observations from a re-analysis of the deposited data

Results flagged for a closer look

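Several genes had vector differences of opposite sign in the lines, each beyond 1 SD of the scatter between probe sets in its line, as had 5.84% of the 10572 genes measured in both lines. CA13 and EPAS1 lay inside the central 95% of measured genes in both lines. With 1 array per group the difference between the lines was not tested. CA13 had log2 0.257 in NCI-H358 and -0.327 in A549 at its measured probe set, while its dim probe set was below 0 in both lines. Among the partner genes, EPAS1 had 0.249 in NCI-H358 and -0.189 in A549, ESR1 had -0.269 and 0.351, and VHL, the ubiquitin ligase subunit that marks HIF factors for degradation, had -0.533 and 0.51. VHL signals were 35.9 and 51.9 in NCI-H358 with CHST11 and with the empty vector, and 64.3 and 45.2 in A549.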

How the results depend on the processing

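The labels give no replicate numbers, so no replicate block was fitted, but limma compared the lines within each vector through its vector term. Of the alternative values computed, 127 stayed within the scatter or within 1.5 times the main count and 17 moved. Of 43 alternative vector differences of the members 1 changed sign, that of CA13 in NCI-H358, at log2 -0.019 with the median of its 2 probe sets. In A549 the vector differences of CA2, CA8, CA11, CA12 and CA13 shifted by at most log2 0.089 under the settings that gave a value. Counting genes measured in both lines only, a choice made after seeing the data, limma called 6437 genes between lines and 35 partner genes. The line differences are bounds set by the filter. With no filter they were log2 -1.496 for CA2, -1.25 for CA8, -2.20 for CA11 and -7.49 for CA12. With the filter at the 75th percentile they were -0.052 for CA11 and -5.26 for CA12, and CA2, CA8 and CA13 were not measured. With the median of probe sets CA12 had -5.03. From 1 vector pair alone CA2 ran from -1.28 to -0.23, CA8 from -0.77 to -0.25, CA11 from -1.79 to -1.13, CA12 from -7.02 to -6.87 and CA13 from 0.19 to 0.77, and genes at least 2-fold apart between lines numbered 2622 to 2721. That count, 2264 in both pairs, was 1419 with the stricter filter. With the median of probe sets 8 genes in A549 and 3 in NCI-H358 were at least 2-fold apart, and with the stricter filter 5 and 3, beside 13 and 6. With no filter, where more genes were tested at the floor, limma called 1905 genes between lines in place of 7909, and 14 partner genes in place of 43.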
